A study of Mus musculus with 15 samples.

Results

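Genes of the cell cycle and DNA replication were followed as 40 probe sets of 35 genes, out of 22690 probe sets on the array. They were picked by the first letters of their symbols, for example Ccnb, Ccnd, Cdk, Cdc, Mcm, Orc, Smc, Cenp and Kif, among the 2416 probe sets on 4 lists of differing genes deposited by the authors, the only probe sets that carry a gene name here. Of the 40, 9 stood among the 639 probe sets listed as higher and 29 among the 1484 listed as lower in mammary buds labelled PTHrP-/- than in WT buds. On the skin lists 3 stood among the 338 listed with WT skin above WT buds and 2 among the 215 listed with WT skin below them, and 3 probe sets (Kif21a, Mad2l1bp and Mcm6) were on both kinds of list. The choice thus used the bud arrays and the WT skin arrays, so those comparisons are described below, and counts of calls given beside them support nothing, while skin labelled K14-PTHrP and skin labelled K14WT played no part in it.

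RNA was measured on 15 Affymetrix MOE430A arrays, 3 for each of 5 groups of tissue from CD-1 mouse embryos at embryonic day 15. The groups were ventral skin labelled K14-PTHrP, from embryos in which the keratin 14 promoter drives parathyroid hormone-related protein (PTHrP) in basal keratinocytes, ventral skin labelled K14WT, wild-type skin that served as its control, WT ventral skin, mammary buds labelled PTHrP-/-, and WT mammary buds. Embryos were genotyped and like tissue was pooled before RNA isolation. Whether each array had a pool of its own is not stated in the labels, so the p-values measure a spread between preparations that may be technical. PTHrP is a secreted peptide that the epithelium of the mammary bud makes, and in its absence the mammary mesenchyme does not form. Each pool is a mixture of epithelium, mesenchyme and other cells, in which fewer cells of a type and less RNA per cell cannot be told apart.

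A cell enters the cycle when D-type cyclins switch on the kinases CDK4 and CDK6, which phosphorylate the retinoblastoma protein and release E2F transcription factors. E2F factors raise the genes of the MCM helicase, which the origin recognition complex loads onto DNA before replication, while cyclin B with CDK1 later drives mitosis. In the mammary bud at this stage epithelial cells are known to divide slowly, whereas the surrounding skin grows and stratifies.

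By role, 13 of the probe sets belonged to 10 genes of cyclins, cyclin-dependent kinases (CDKs) and their partners and inhibitors. There were 6 genes of origin licensing and the replication fork, 4 of mitosis, 3 of chromosome structure (Smc1a, Smc4 and Smc5) and 4 probe sets of 3 kinesins. The kinesins Kif1b, Kif5b and Kif21a are known as motors of intracellular transport. A further 10 probe sets of 9 genes matched by name only: Cdc42, a GTPase of cell polarity and actin, its effectors Cdc42ep1, Cdc42ep5 and Cdc42se1, Cdk5, Cdk5rap1, Aurkaip1, Poldip2 and Poldip3. None of the listed probe sets matched Pcna, Top, Bub or Rrm. A probe set was tested where it lay above the median of its own array on at least 3 of the 15 arrays, which kept 38 of the 40 and 11692 of all. Cdk5rap1 and Mad2l1bp did not pass. Mad2l1bp, a regulator of the spindle checkpoint, read 3.16 to 3.22 in buds labelled PTHrP-/- and 3.50 to 4.01 in WT buds on the log2 scale. Cdk5rap1 read 2.28 to 2.31 in buds labelled PTHrP-/- and 2.36 to 3.02 in WT buds.

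Across the kept probe sets, pairs of arrays correlated at 0.964 to 0.994 inside a group and at 0.941 to 0.991 across groups. The median SD within a group was 0.20 log2 units in K14-PTHrP skin, 0.18 in K14WT skin, 0.12 in WT skin, 0.11 in buds labelled PTHrP-/- and 0.13 in WT buds. The gene for PTHrP, Pthlh, read 3.60, 3.64 and 3.39 in K14-PTHrP skin against 4.38, 3.86 and 4.23 in K14WT skin. It read 6.81, 6.28 and 6.11 in buds labelled PTHrP-/- against 4.87, 5.85 and 5.57 in WT buds. Both differences ran against the labels, and neither passed the test described below (limma, adjusted p = 0.368 and 0.211). The sources used here do not place this probe set relative to the deletion or the transgene sequence, so neither label is checked by it. For 123 probe sets every WT skin array lay more than 1 log2 unit outside the range of the other arrays, and 0 of the 40 studied here were among them.

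**Figure D1:**
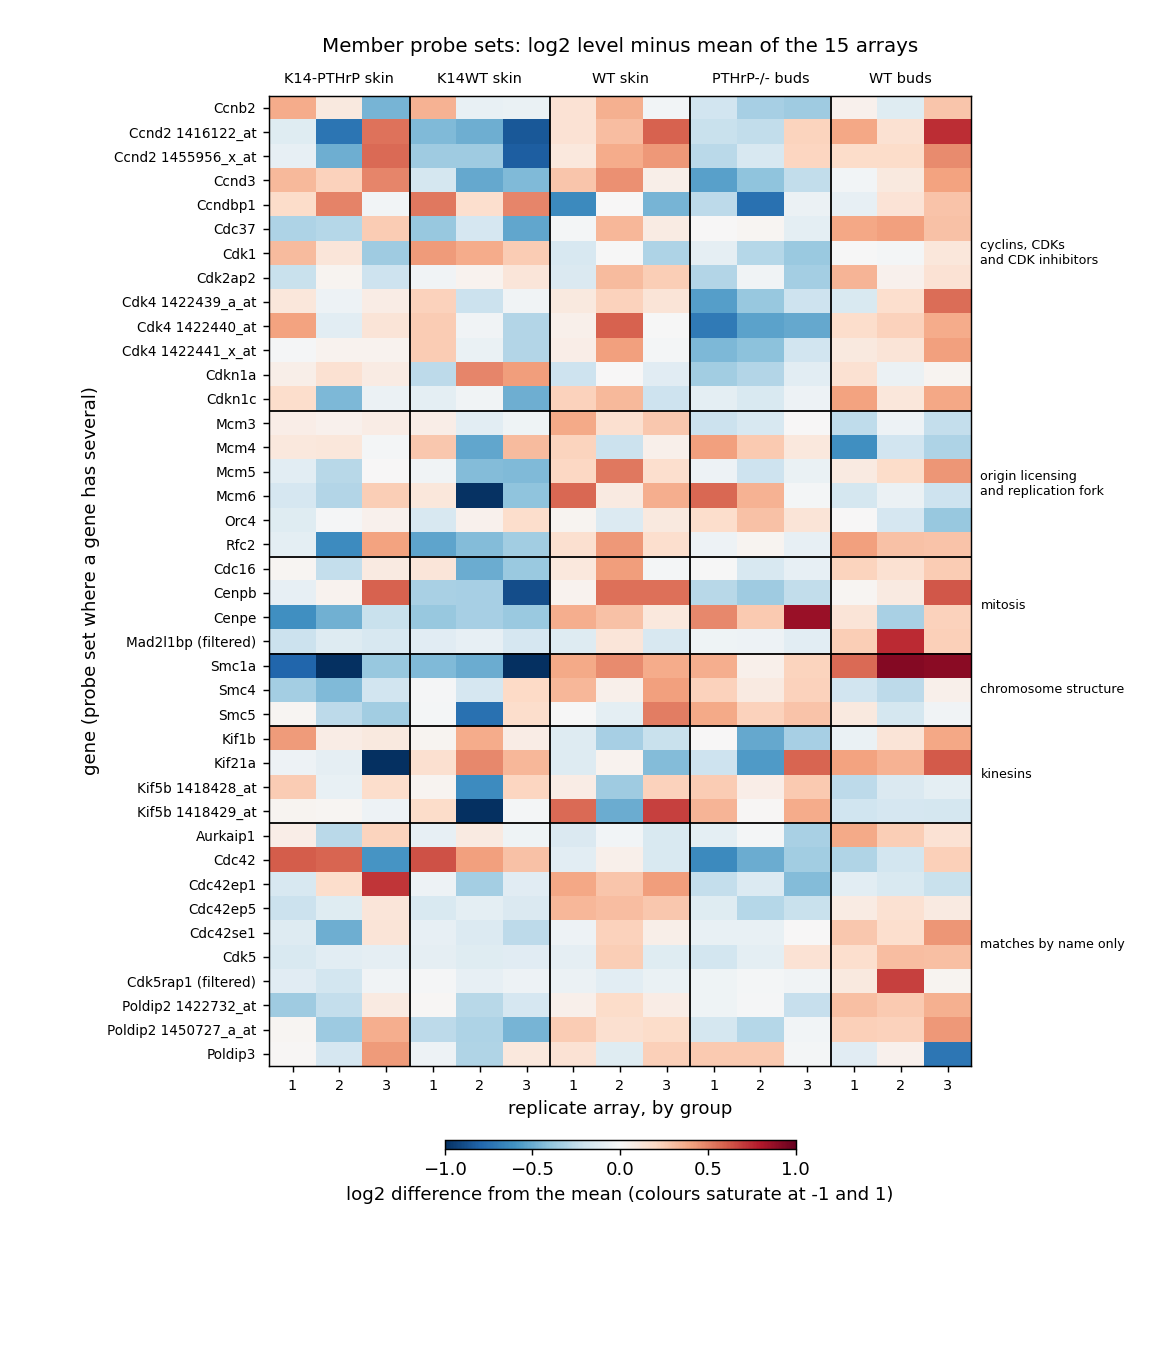
Log2 level of each of the 40 probe sets minus its mean over the 15 arrays (colour, red above and blue below the mean), with arrays in columns by group and genes in rows by role. The 13 rows of cyclins, CDKs and partners are mostly blue in buds labelled PTHrP-/-, Smc1a is blue in all 6 K14 arrays, and Ccnd3 is red in K14-PTHrP skin and blue in K14WT skin.

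Promoters were found for 26 of the 35 genes, 32 windows of 300 bases, in the RefSeq table of build GRCm38.p6. The windows below show letters that are known from E2F-type and mitotic promoters, in the mitotic pair Ccnb2 and Cdk1 and the helicase genes Mcm5 and Mcm6, which hold them, and in Smc1a, whose call below held in every setting. Each runs from 150 bases before to 15 bases after the transcription start, 5′ to 3′ on the strand of the gene, with the letters searched (CCAAT, the mitotic element TTTGAA and the E2F letters TTTGGCGC) in capitals on either strand. Ccnb2 (cyclin B2, chr9:70421540-70421704, minus strand) and Cdk1 (chr10:69352898-69353062, minus strand) hold CCAAT together with TTTGAA.
Ccnb2: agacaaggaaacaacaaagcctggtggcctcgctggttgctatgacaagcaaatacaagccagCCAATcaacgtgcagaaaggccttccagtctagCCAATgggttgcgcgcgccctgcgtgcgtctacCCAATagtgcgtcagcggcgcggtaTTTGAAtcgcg
Cdk1: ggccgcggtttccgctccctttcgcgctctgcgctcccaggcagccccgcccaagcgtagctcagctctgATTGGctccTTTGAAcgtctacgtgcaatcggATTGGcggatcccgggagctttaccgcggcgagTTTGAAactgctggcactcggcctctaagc

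The helicase subunits Mcm5 (chr8:75109359-75109523, plus strand) and Mcm6 (chr1:128359691-128359855, minus strand) hold CCAAT together with the E2F letters TTTGGCGC, which read GCGCCAAA on the other strand.
Mcm5: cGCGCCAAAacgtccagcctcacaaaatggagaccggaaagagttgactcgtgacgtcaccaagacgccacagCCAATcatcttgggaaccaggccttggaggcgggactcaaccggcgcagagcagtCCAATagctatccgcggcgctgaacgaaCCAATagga
Mcm6: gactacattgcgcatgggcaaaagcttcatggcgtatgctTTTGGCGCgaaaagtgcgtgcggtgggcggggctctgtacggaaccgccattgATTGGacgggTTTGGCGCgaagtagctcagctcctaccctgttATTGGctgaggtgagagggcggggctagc

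Smc1a (chrX:152016278-152016442, plus strand) holds CCAAT on the other strand in this stretch, and its TTTCCCGC begins at base 38 counted from the start, past the stretch shown.
Smc1a: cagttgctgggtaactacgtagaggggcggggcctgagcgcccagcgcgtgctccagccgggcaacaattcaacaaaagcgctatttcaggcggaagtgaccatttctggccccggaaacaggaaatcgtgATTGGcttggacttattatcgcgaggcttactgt

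In full windows of 300 bases searched on both strands, TTTGGCGC occurred in 3 of the 32 (9.38%; Mcm3, Mcm5 and Mcm6), against 0.514% of all 32851 promoters in the table. The related letters TTTCCCGC also occurred in 3 (9.38%; Cenpb, Mcm3 and Smc1a), against 1.07% of all. TTTGAA occurred in 4 (12.5%; Ccnb2, Cdc42ep5, Cdk1 and Cdk5rap1) and CCAAT in 13 (40.6%), against 17.9% and 37.4% of all. GGGCGG, the core of a GC box, occurred in 27 (84.4%), against 35.7% of all. These matches describe letters and not binding, and several genes have more than 1 window.

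The comparison of K14-PTHrP skin with K14WT skin asked what PTHrP in the epidermis changes in ventral skin. Ccnd3, cyclin D3, one of the D-type cyclins that activate CDK4, was the only one of the 38 tested probe sets called higher, by 1.65-fold. None was called lower. In a linear model over all 15 arrays (limma, adjusted over 11692 probe sets, threshold 0.05), 0.513% of all tested probe sets were called higher and 0.197% lower, so 1 call among 38 is a small count. At an unadjusted p under 0.05, 5 of the 38 were higher and 3 lower, 8 in all, against 11.8% of all tested. The arrays of the groups did not overlap for 4 of the 38, Ccnd3 and Cenpb higher and Smc4 and Kif21a lower, against 11.3% of all tested. Of the 38, 23 were higher and 15 lower, with a median log2 difference of 0.05 against -0.01 over all tested. When each array was centred on its own median the split was 30 higher and 8 lower, and over all tested it was 7348 higher and 4344 lower, against 5665 and 6027 as deposited.

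Ccnd3 read 9.20, 9.11 and 9.37 in K14-PTHrP skin, against 8.70, 8.36 and 8.44 in K14WT skin. WT skin read 9.16, 9.33 and 8.94, near K14-PTHrP skin, and K14WT skin was also called lower than WT skin (limma adjusted p = 0.0176). Every K14-PTHrP array lay above every K14WT array, and the difference was 0.72 ± 0.14 (SE, n = 3 per group, limma adjusted p = 0.0392, from 0.018 to 0.379 over all settings tried). The call was lost in several settings, among them without K14-PTHrP replicate 1 (adjusted p = 0.0841) or 3 (0.116), without K14WT replicate 2 (0.144) or 3 (0.159), with no filter on low values (0.0662), and when only these 2 groups were fitted (0.379). Ccnd2, cyclin D2, was measured by a pair of probe sets that followed each other over the 15 arrays (r = 0.975). The first of them read 9.27, 8.66 and 9.93 in K14-PTHrP skin, against 8.95, 8.91 and 8.55 in K14WT skin. Replicate 3 of K14-PTHrP skin stood highest and replicate 2 lay among the K14WT arrays, and the differences of the first and the other, 0.49 ± 0.27 and 0.51 ± 0.23, did not pass (adjusted p = 0.480 and 0.405).

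CDK4, the kinase partner of the D cyclins, had 3 probe sets, which differed by 0.05 ± 0.16, 0.16 ± 0.18 and 0.05 ± 0.15 and did not pass. Cdk1, the kinase of mitotic entry, read 9.64, 9.44 and 8.97 in K14-PTHrP skin and 9.75, 9.70 and 9.58 in K14WT skin. Replicate 3 of K14-PTHrP skin was the lowest of these arrays, replicate 1 lay among the K14WT arrays, and the difference of -0.32 ± 0.15 did not pass (adjusted p = 0.422). Ccnb2, its cyclin partner, differed by -0.07 ± 0.19. The CDK inhibitors Cdkn1a, which encodes p21, and Cdkn1c, which encodes p57, differed by -0.12 ± 0.16 and 0.10 ± 0.18. Cdc37, a chaperone cofactor of protein kinases including CDK4, differed by 0.24 ± 0.15. Ccndbp1, a binding partner of D cyclins, and Cdk2ap2 both differed by -0.18, with SEs of 0.21 and 0.14, and neither passed.

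**Figure D2:**
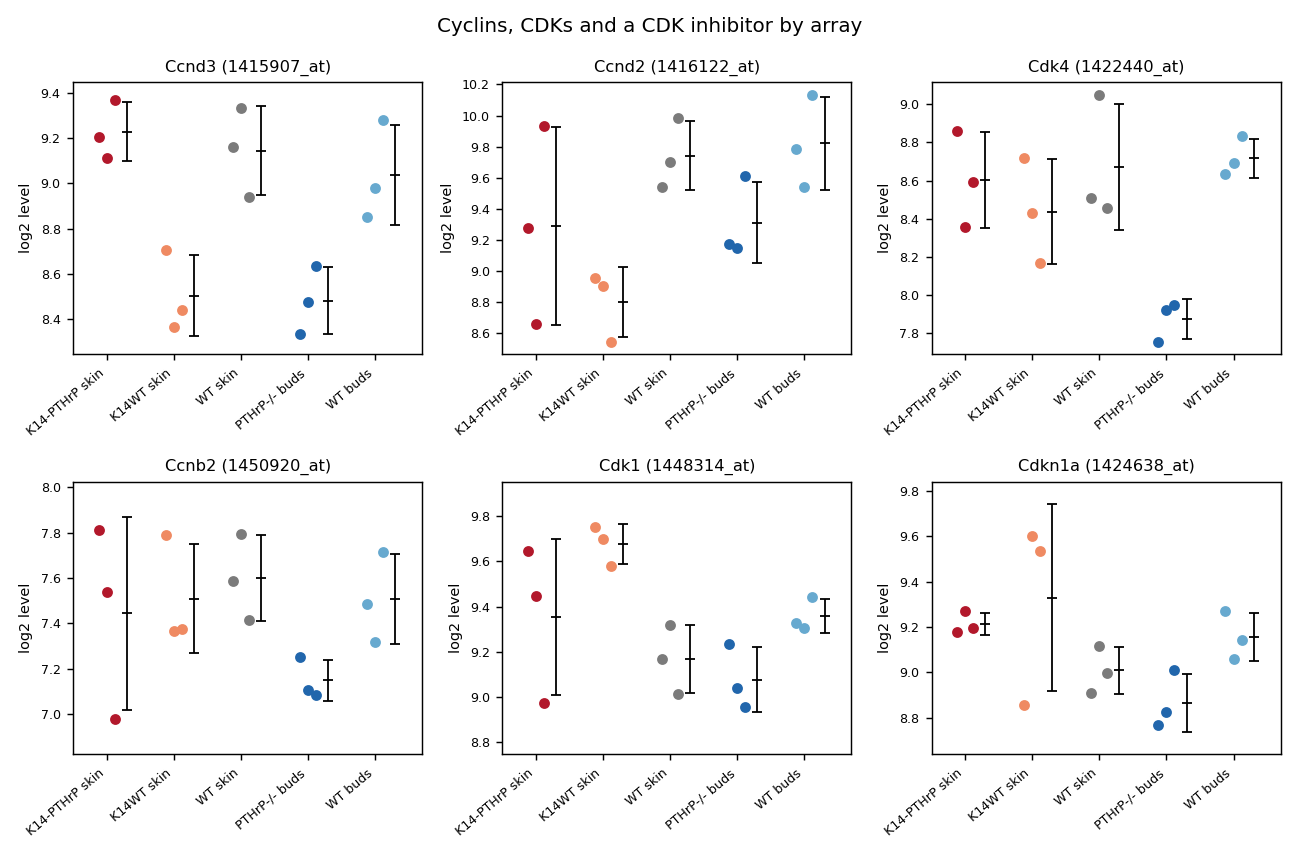
Log2 level on each array (points) with the group mean and SD (bars, n = 3) for Ccnd3, Ccnd2, Cdk4, Ccnb2, Cdk1 and Cdkn1a in the 5 groups; the vertical axes do not start at 0. Ccnd3 reads 9.11 to 9.37 in K14-PTHrP skin and 8.36 to 8.70 in K14WT skin, and the Cdk4 probe set drawn reads 7.76 to 7.95 in buds labelled PTHrP-/- and 8.63 to 8.83 in WT buds.

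Among genes of replication, 0 of 6 passed in K14-PTHrP skin (limma, lowest adjusted p = 0.491), and 0 of 6 had an unadjusted p under 0.05. Mcm6 read 9.12, 8.99 and 9.53 in K14-PTHrP skin, against 9.40, 8.30 and 8.88 in K14WT skin, a difference of 0.35 ± 0.24 with overlapping arrays. Rfc2, a subunit of the clamp loader at the replication fork, read 8.42, 7.89 and 8.93 in K14-PTHrP skin, against 7.99, 8.08 and 8.17 in K14WT skin, a difference of 0.33 ± 0.19. Replicate 2 of K14-PTHrP skin lay below all 3 K14WT arrays and the other two above them. Mcm3, Mcm4 and Mcm5 differed by 0.09 ± 0.09, 0.05 ± 0.20 and 0.18 ± 0.14, and Orc4, a subunit of the origin recognition complex, by -0.05 ± 0.12. The 6 split into 5 higher and 1 lower, 6 and 0 with arrays centred on their medians, and 4 and 2 after quantile normalization.

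Cenpb, a protein that binds a repeat of centromeric DNA, read 4.66, 4.78 and 5.34 in K14-PTHrP skin, against 4.43, 4.41 and 3.86 in K14WT skin. Its arrays did not overlap, but the difference of 0.69 ± 0.22 did not pass (adjusted p = 0.255, from 0.118 to 0.809 over all settings). Smc4, a subunit of the condensin complex that compacts mitotic chromosomes, read 9.57 to 9.82 on the arrays of K14-PTHrP skin, against 9.84 to 10.20 in K14WT skin. It too did not overlap, and its difference of -0.33 ± 0.13 did not pass (adjusted p = 0.352). Smc1a, of the cohesin ring that holds sister chromatids, and Smc5, of a complex that serves DNA repair, differed by -0.04 ± 0.19 and -0.0024 ± 0.21. The motor Cenpe of the kinetochore, where spindle fibres attach, and Cdc16, a subunit of the anaphase-promoting complex, differed by -0.08 ± 0.17 and 0.21 ± 0.16.

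Kif21a read 7.03, 7.0 and 5.61 in K14-PTHrP skin, against 7.24, 7.56 and 7.41 in K14WT skin. Replicate 3 of K14-PTHrP skin lay far below the others, and the difference of -0.86 ± 0.34 did not pass (adjusted p = 0.368) and moved to -0.39 when that replicate was left out. Kif5b, the heavy chain of conventional kinesin, differed by 0.25 ± 0.20 and 0.31 ± 0.32 at its pair of probe sets, and Kif1b by 0.04 ± 0.16. Of the 9 tested probe sets that matched by name only, 0 passed in limma and 2 had an unadjusted p under 0.05. These were Cdc42ep1 (0.41 ± 0.17) and Poldip2 at 1 of its probe sets (0.35 ± 0.15), whereas the other Poldip2 probe set differed by -0.03 ± 0.12.

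Among markers of the cell types that ventral skin can hold, 3 probe sets passed in this comparison (limma). They were Col17a1 of basal keratinocytes at 0.57 ± 0.09 (adjusted p = 0.0113), Sim2 of bud epithelium at 1.89 ± 0.25 (0.0026) and Thy1 of dermal fibroblasts at 0.98 ± 0.20 (0.045). Of the 12 bud epithelium probe sets 2 were higher, Sim2 among them, and 10 lower, with a median of -0.16. The bud epithelium gene Elf5 differed by -1.53 ± 0.41, against the direction of Sim2, and did not pass (limma adjusted p = 0.16). Basal keratinocyte markers, of which 3 of 6 had named and tested probe sets (Krt14, Krt15 and Col17a1), summed to a linear signal of 6067 to 8661 in K14-PTHrP skin and 4963 to 6782 in K14WT skin. Krt14 differed by 0.63 ± 0.16 and 0.45 ± 0.16 and did not pass (adjusted p = 0.143 and 0.299). Bud epithelium markers (10 of 10) summed to 2524 to 2891 in K14-PTHrP skin and 2797 to 3413 in K14WT skin, and fibroblast markers (8 of 12) to 25444 to 40190 in K14-PTHrP skin and 39386 to 42517 in K14WT skin. The fibroblast gene Lum differed by -0.96 ± 0.23, against the direction of Thy1, and did not pass (adjusted p = 0.0886). Skeletal muscle markers (11 of 14) summed to 10816 to 18549 in K14-PTHrP skin and 15818 to 21226 in K14WT skin, and endothelial markers (4 of 7) to 918 to 1621 in K14-PTHrP skin and 744 to 1166 in K14WT skin. Leukocyte markers (3 of 8) summed to 1102 to 1448 in K14-PTHrP skin and 782 to 996 in K14WT skin, the only one of these 6 sums whose groups did not overlap, and none of the last 3 lists had a call. A linear signal taken from log2 levels cannot read 0, so these sums do not show which markers were detected. Their part in the Ccnd3 result was not tested.

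K14WT skin and WT skin are both labelled wild type, and comparing them shows how far these genes differ without a labelled difference in genotype. Smc1a was 2.13-fold lower in K14WT skin. With it fell Ccnd3, Mcm5, Rfc2, Cenpb, Cenpe, Cdc42ep5 and 1 probe set each of Ccnd2 and Poldip2, while Ccndbp1 rose. Cdc42ep5 differed by -0.44 ± 0.09 (limma adjusted p = 0.0132). Poldip2 differed by -0.54 ± 0.15 (limma adjusted p = 0.0442) at the probe set that passed and by -0.25 ± 0.12 (0.213) at the other. WT skin arrays had served to choose 5 of the 40 probe sets, none of them among those that passed. The calls were 9 probe sets lower and 1 higher of 38, against 5.98% of all tested probe sets called lower and 1.39% higher (limma, adjusted p under 0.05). The arrays did not overlap for 15 lower and 5 higher, against 21.4% and 9.6% of all tested. Of the 38, 29 were lower, and the median was -0.25 against -0.05 over all tested. With arrays centred on their medians 12 were called lower and 0 higher, and after quantile normalization 5 lower and 2 higher. Over all tested probe sets the calls were 162 higher and 699 lower as deposited, 131 and 923 with centring, and 248 and 436 after quantile normalization. Of the 38, 27 came from the authors' list of probe sets lower in buds labelled PTHrP-/-. Of all 1407 tested on that list, 1034 were lower, with 188 called lower and 18 called higher. The median was -0.22 there, against -0.24 for the 27. On the list of probe sets higher in those buds it was -0.05 for all 525 tested and -0.26 for the 9 of the 38 on it.

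Smc1a read 6.15, 6.10 and 5.47 in K14WT skin, against 6.97, 7.07 and 6.96 in WT skin. K14-PTHrP skin, at 5.80, 5.58 and 6.22, lay with K14WT skin, and all 6 K14 arrays lay below every array of the other 3 groups. The difference between K14WT and WT skin was -1.09 ± 0.19 (SE, n = 3 per group, limma adjusted p = 0.00416, at most 0.0236 over all settings), and this call held in all 15 alternatives. Cenpe differed in a like way among the skin groups, at 4.10, 4.15 and 4.11 in K14WT skin and 4.85, 4.77 and 4.59 in WT skin, with K14-PTHrP skin again beside K14WT skin, at 3.87 to 4.26. Its difference of -0.62 ± 0.17 passed (adjusted p = 0.0440, from 0.0185 to 0.125 over all settings). Unlike Smc1a, Cenpe was not called in any fit that left out 1 array of this pair, nor with no filter on low values. Its K14 levels lay near the array medians, which ran from 3.86 to 4.04. For Ccnd3 the WT skin arrays read 9.16, 9.33 and 8.94, with replicate 3 below every K14-PTHrP array and the other two among them, and K14WT skin lay below both groups, by -0.64 ± 0.14 from WT skin (adjusted p = 0.0176, from 0.00999 to 0.0842 over all settings).

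Mcm5 read 7.72, 7.32 and 7.32 in K14WT skin and 7.96, 8.28 and 7.93 in WT skin, a difference of -0.60 ± 0.14 (adjusted p = 0.0226, from 0.00585 to 0.0978). Rfc2 differed by -0.69 ± 0.19 (adjusted p = 0.0437, from 0.0187 to 0.151) and was not called in any fit that left out 1 array of this pair. Cenpb differed by -0.89 ± 0.22 (adjusted p = 0.0280, from 0.026 to 0.116), and its lowest K14WT array, at 3.86, lay among the array medians. Arrays of the groups did not overlap for any of these 3. Ccnd2 differed by -0.82 ± 0.23 at its x_at probe set (adjusted p = 0.0490, from 0.0353 to 0.171) and by -0.94 ± 0.27 at the other, which just missed (adjusted p = 0.0508). Ccndbp1 read 6.68, 6.33 and 6.65 in K14WT skin and 5.52, 6.16 and 5.70 in WT skin, so the arrays did not overlap, with a difference of 0.76 ± 0.21 (adjusted p = 0.0432, from 0.0262 to 0.139). Cdk1 was also higher in every K14WT array, by 0.51 ± 0.15, without passing (adjusted p = 0.0559).

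The number of calls in this pair changed when single arrays were left out. Among the 38 it was 10, 3 and 2 without K14WT replicates 1, 2 and 3. Without WT skin replicates 1, 2 and 3 it was 3, 3 and 4. Over all tested probe sets the calls moved as well, from 861 to 1278, 467 and 398, and to 460, 383 and 543, in the same order. With no filter on low values 4 of the probe sets studied here were called, and 582 of all 22626. Calls among them were 5 when the 120 tested probe sets with displaced WT skin levels were left out of the adjustment, with 619 in all. The mean of K14-PTHrP skin lay between the means of K14WT and WT skin for 21 of the 38 probe sets, above both for 6, Ccnd3 among them, and below both for 11. For Ccnd3 the means of K14-PTHrP and WT skin were close, at 9.23 and 9.14. Endothelial markers summed to 744 to 1166 in K14WT skin and 2180 to 2618 in WT skin. Among them the Ramp2 probe sets differed by -0.49, -2.04, -2.07 and -2.40, whereas Cldn5, Cdh5 and Esam differed by -0.08, 0.02 and -0.12. Skeletal muscle markers summed to 15818 to 21226 in K14WT skin and 8705 to 13898 in WT skin. Basal keratinocyte markers summed to 4963 to 6782 in K14WT skin and 7451 to 8962 in WT skin. Leukocyte markers summed to 782 to 996 in K14WT skin and 1085 to 1273 in WT skin. The part of these markers in the differences of this pair was not tested.

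**Figure D3:**
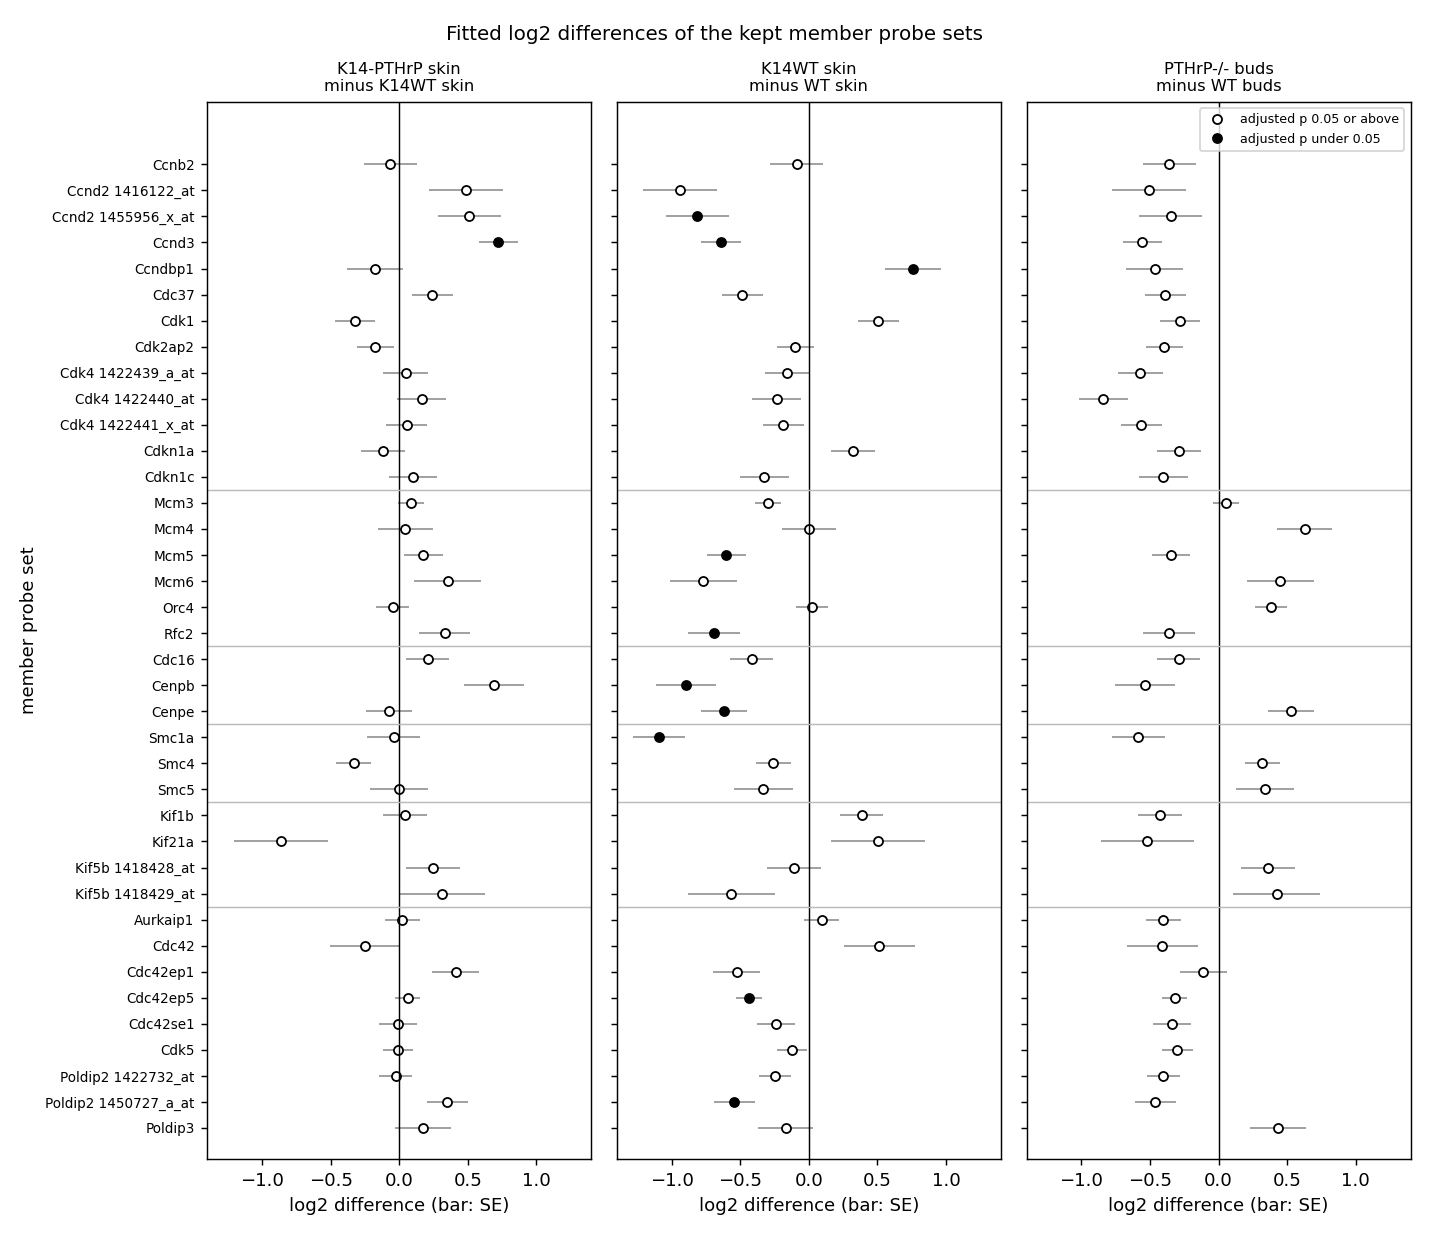
Fitted log2 difference (points) with its SE (bars) for the 38 tested probe sets in K14-PTHrP minus K14WT skin, K14WT minus WT skin, and PTHrP-/- minus WT buds; filled points have a limma adjusted p under 0.05, and grey lines separate the roles. There is 1 filled point in the left panel (Ccnd3), 10 in the middle panel and 0 in the right panel, where the 13 points of cyclins, CDKs and partners all lie left of 0.

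In buds labelled PTHrP-/- against WT buds the direction of most values was fixed by the choice of genes, and the levels are given as a description. All 13 probe sets of cyclins, CDKs and partners were lower, from -0.84 to -0.28 with a median of -0.40, and remained lower under both other scalings. Among the 6 replication genes 4 were higher and 2 lower, or 3 and 3 with arrays centred on their medians. Over the 38, 10 were higher and 28 lower, with a median of -0.35 against -0.03 over all tested. None was called in limma, where 0.0171% of all tested were called in each direction. The arrays of the groups did not overlap for 8 higher and 22 lower, against 14.2% and 18% of all tested. Nothing is read from these counts, since the contrast chose the genes.

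Cdk4 had the largest of these differences. The Cdk4 probe set furthest apart read 7.76, 7.92 and 7.95 in buds labelled PTHrP-/- and 8.63, 8.69 and 8.83 in WT buds, a difference of -0.84 ± 0.18. The other two Cdk4 probe sets differed by -0.57 ± 0.16 and -0.56 ± 0.15, and all 3 had no overlap between the groups, with correlations of 0.832 to 0.909 among them over the 15 arrays. Ccnd3 read 8.34, 8.48 and 8.63 in buds labelled PTHrP-/- and 8.85, 8.98 and 9.28 in WT buds, also without overlap, a difference of -0.56 ± 0.14. In the authors' deposited table Cdk4 was lower by 1.79-, 1.51- and 1.48-fold and Ccnd3 by 1.48-fold.

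The Ccnd2 pair differed by -0.51 ± 0.27 and -0.35 ± 0.23, and replicate 3 of the buds labelled PTHrP-/-, at 9.61 and 9.67, overlapped the WT buds. Ccnb2 read 7.25, 7.11 and 7.08 in buds labelled PTHrP-/- and 7.49, 7.32 and 7.71 in WT buds. Its partner Cdk1 read 9.24, 9.04 and 8.96 in buds labelled PTHrP-/- and 9.33, 9.30 and 9.44 in WT buds. Both were lower on every array without overlap, by -0.36 ± 0.19 and -0.28 ± 0.15. The inhibitors were lower as well, Cdkn1a by -0.29 ± 0.16 and Cdkn1c by -0.40 ± 0.18. All probe sets of this role came from the list of lower ones, so the shared direction of activators and inhibitors follows from the choice. Cdkn1c had the highest level of the 40 probe sets, at 11.94 to 12.04 in buds labelled PTHrP-/- and 12.21 to 12.49 in WT buds. Levels of different probe sets are not on one scale, so no order between genes follows.

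The subunits of the MCM helicase, which act as one ring, stood on different lists. Mcm4 and Mcm6 were listed as higher in buds labelled PTHrP-/- and Mcm5 as lower, so their directions follow from the choice. Mcm4 read 8.86, 8.71 and 8.56 in buds labelled PTHrP-/- and 7.84, 8.26 and 8.14 in WT buds, a difference of 0.63 ± 0.20. Mcm6 read 9.86, 9.64 and 9.27 against 9.11, 9.23 and 9.08 in the same order of groups, a difference of 0.45 ± 0.24. Mcm5 ran the other way, at 7.71, 7.55 and 7.69 in buds labelled PTHrP-/- and 7.85, 7.94 and 8.19 in WT buds, a difference of -0.35 ± 0.14. None of these 3 genes overlapped between the groups, while Mcm3 did and differed by 0.06 ± 0.09. Mcm3, Mcm4 and Mcm6 were measured by probe sets of the x_at type, which may bind more than 1 transcript, and Mcm5 was not. Orc4 was higher by 0.38 ± 0.12 and Rfc2 lower by -0.36 ± 0.19, both without overlap.

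**Figure D4:**
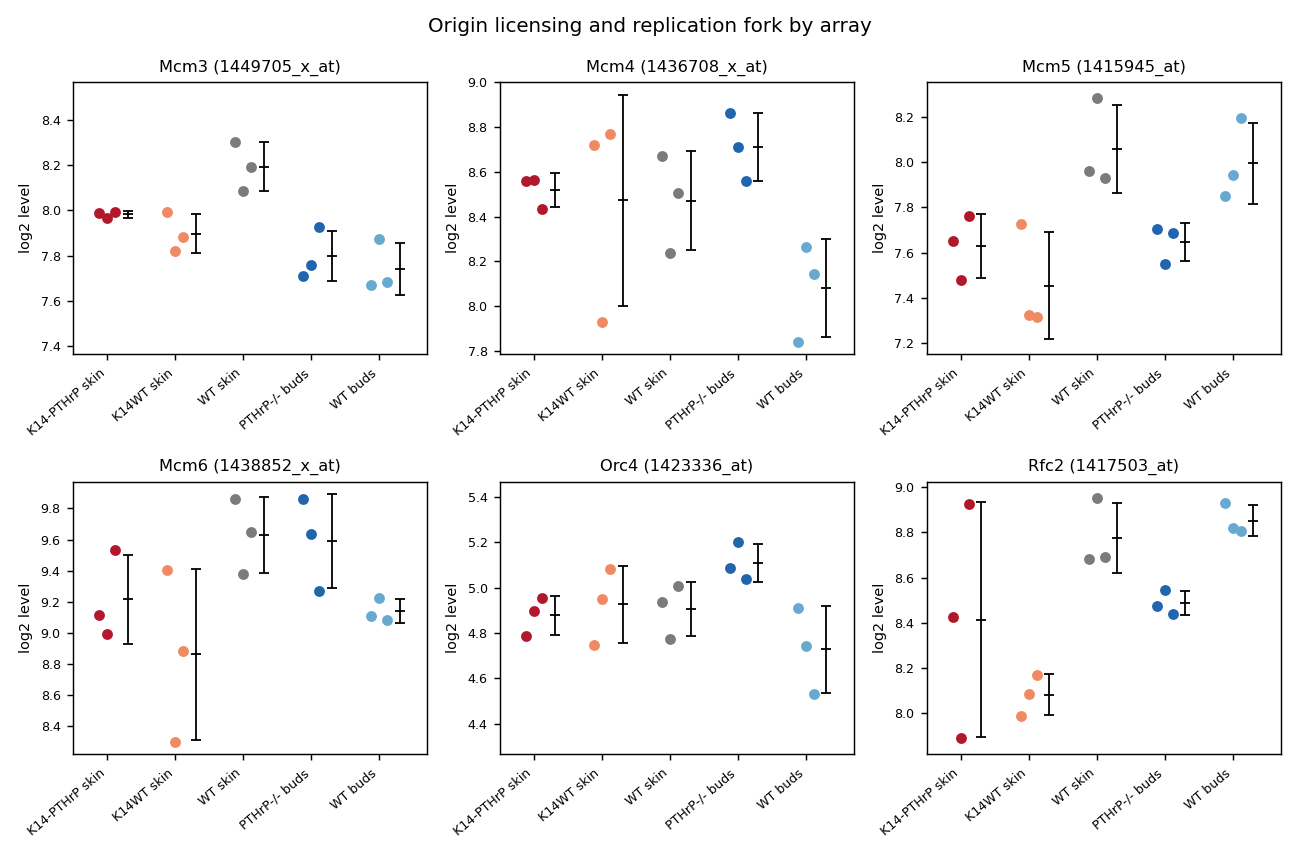
Log2 level on each array (points) with the group mean and SD (bars, n = 3) for the 6 genes of origin licensing and the replication fork; the vertical axes do not start at 0. Mcm4, Mcm6 and Orc4 are higher, and Mcm5 and Rfc2 lower, on every array of buds labelled PTHrP-/- than on every WT bud array, and Mcm3 is highest in WT skin.

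The genes of mitosis and chromosome structure likewise came from both bud lists, which set their directions. Smc1a read 6.96, 6.64 and 6.82 in buds labelled PTHrP-/- and 7.16, 7.51 and 7.49 in WT buds, a difference of -0.58 ± 0.19. Smc4 and Smc5 ran the other way, by 0.32 ± 0.13 and 0.34 ± 0.21, and all 3 had no overlap between the groups. Cenpb was lower by -0.54 ± 0.22 and Cenpe higher by 0.53 ± 0.17, both without overlap. In the authors' deposited table Cenpb was called present on 3 of 3 WT bud arrays and on 0 of 3 arrays of buds labelled PTHrP-/-. Cdc16 was lower by -0.29 ± 0.16. Both Kif5b probe sets were higher, by 0.36 ± 0.20 and 0.42 ± 0.32, whereas Kif1b (-0.43 ± 0.16) and Kif21a (-0.52 ± 0.34) were lower with overlapping arrays.

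**Figure D5:**
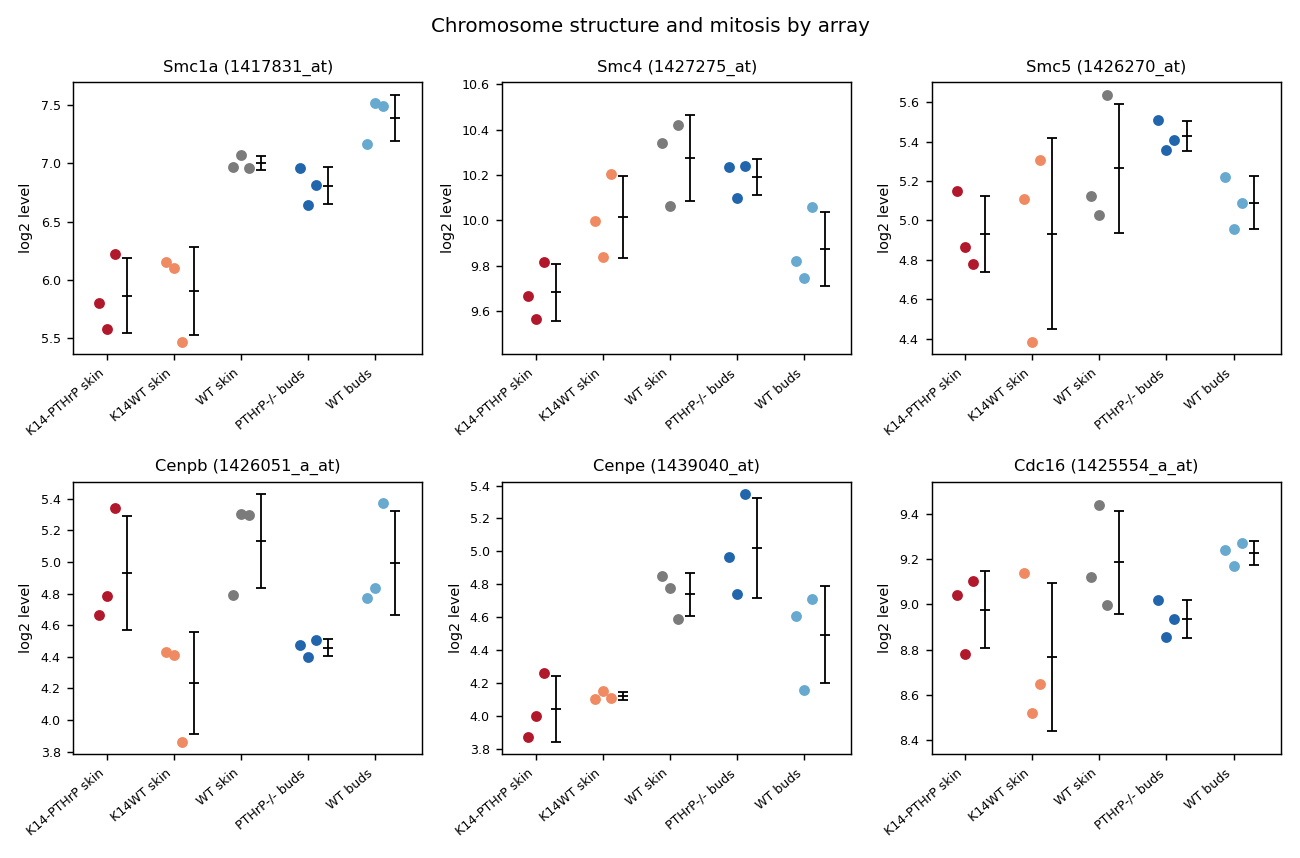
Log2 level on each array (points) with the group mean and SD (bars, n = 3) for Smc1a, Smc4, Smc5, Cenpb, Cenpe and Cdc16; the vertical axes do not start at 0. Smc1a reads 5.47 to 6.22 on the 6 K14 arrays and 6.64 to 7.51 on the other 9, and Cenpe reads 3.87 to 4.26 on the K14 arrays.

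Among probe sets that matched by name only, 8 of 9 were lower in buds labelled PTHrP-/-. Cdk5, counted among these and among those without overlap, lay above the array median on only 3 of the 15 arrays. It read 3.50 to 3.82 in buds labelled PTHrP-/- and 3.84 to 3.98 in WT buds. In the authors' deposited table Cdk5 was called present on 0 arrays of either bud group. Poldip2 was lower at both of its probe sets (-0.40 ± 0.12 and -0.46 ± 0.15, r = 0.704 between them over the 15 arrays), Cdc42 by -0.41 ± 0.26 and Aurkaip1, a mitochondrial protein, by -0.40 ± 0.13, while Poldip3 was higher by 0.43 ± 0.20. Bud epithelium markers (10 of 10 named and tested, among them Krt8, Krt18 and Pthlh) summed to a linear signal of 3570 to 4676 in buds labelled PTHrP-/- and 5022 to 5265 in WT buds. Of their 12 probe sets 10 were lower and 2 higher, Pthlh by 0.97 ± 0.24 and Cdh1 by 0.26 ± 0.13. Basal keratinocyte markers (3 of 6) summed to 7120 to 7678 in buds labelled PTHrP-/- and 9092 to 10368 in WT buds, and skeletal muscle markers (11 of 14) to 8205 to 9831 in buds labelled PTHrP-/- and 11806 to 12771 in WT buds. These 3 sums lay lower without overlap. So did that of epidermal differentiation markers (3 of 7), at 15077 to 16572 in buds labelled PTHrP-/- and 18944 to 19118 in WT buds. Fibroblast markers (8 of 12) summed to 26445 to 32782 in buds labelled PTHrP-/- and 24622 to 27908 in WT buds. Those arrays overlapped, and 9 of the fibroblast probe sets were higher and 3 lower. All these markers carry names only through the authors' lists. Their part in the lower levels of cyclins and CDKs was not tested.

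In WT skin against WT buds, which share the WT bud arrays with the comparison above, the values are again a description. Mcm3 read 8.30, 8.08 and 8.19 in WT skin and 7.67, 7.87 and 7.68 in WT buds, with no overlap and a difference of 0.45 ± 0.09. Mcm6 was higher by 0.49 ± 0.24 and Smc4 by 0.40 ± 0.13, both without overlap, and Cdc42ep1, a Cdc42 effector, by 0.52 ± 0.17. Kif21a was lower by -0.63 ± 0.34, at 6.95, 7.12 and 6.65 in WT skin and 7.48, 7.43 and 7.70 in WT buds. Of the 38, 18 were higher and 20 lower, with a median of -0.04 against 0.01 over all tested. Mcm3 was the only one called in limma, against 0.915% of all tested called higher and 0.864% lower, and nothing is read from this, since Mcm3 was chosen on this contrast.

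The bud and K14 comparisons share no array, and their values can be set side by side. Of the 28 probe sets that were lower in buds labelled PTHrP-/-, 17 (60.7%) were higher in K14-PTHrP skin, against 56.8% of all tested probe sets lower in those buds and 59.4% of the tested probe sets on the authors' list for that direction. Of the 10 that were higher in those buds, 4 (40%) were lower in K14-PTHrP skin, against 61.3% of all tested probe sets higher in those buds and 42.3% of those on the authors' list, from which the genes were drawn. Both shares lay near those of the lists. Ccnd3 was at -0.56 in buds and 0.72 in skin, and Cenpb at -0.54 and 0.69. Smc4 was at 0.32 in buds and -0.33 in skin. Cdk1 was lower in both, at -0.28 and -0.32, and the Cdk4 probe set furthest apart in buds stood at -0.84 in buds and 0.16 in skin.

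Other genes of the cell cycle, from a list of 103 that excludes those above, had 26 named and tested probe sets of 21 genes. In limma 0 of 26 passed in K14-PTHrP skin, against 0.513% of all tested called higher and 0.197% lower. There 3 had an unadjusted p under 0.05, 1 higher and 2 lower, against 11.8% of all tested. The nearest was Hmmr, a spindle protein and hyaluronan receptor, at -0.49 ± 0.13 (adjusted p = 0.175). In K14WT skin against WT skin 1 was called higher and 3 lower, against 1.39% of all tested called higher and 5.98% lower. Hmmr rose by 0.55 ± 0.13 (adjusted p = 0.0251), and the chromatin protein Uhrf1, which recruits DNA methylation to replicated DNA, was lower by -1.27 ± 0.33 (adjusted p = 0.0329). The anaphase-promoting complex subunits Anapc2 (-0.61 ± 0.13, adjusted p = 0.0145) and Anapc5 at 1 of its probe sets (-0.58 ± 0.16, adjusted p = 0.0428) were the others. In buds labelled PTHrP-/- 10 of the 26 were higher and 16 lower, with a median of -0.32 against -0.03 over all tested. These genes too carry a name only because the lists hold them.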

How the data were processed

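The deposited value table holds levels on a log2 scale, normalized by the authors with GC-RMA, per the submitters' processing notes. In the 4 deposited lists each group has its mean intensity on a linear scale, and a fold relates the means. They also give a false discovery rate, read here as a score, from Cyber-T, per the file headers. Of 40 member probe sets, all were matched to a current RefSeq symbol, 8 symbols were updated and 3 members were found only by the current one. The members, roles, gene lists and rule for named genes were chosen with earlier results of these data known. The rule named members passing in any comparison and, per role, up to 4 with the largest differences among those whose arrays did not overlap in the K14 or bud comparison, and genes with several probe sets. Others named were added after their values were seen.

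Control probe sets (64) were left out. Group means of all 5 groups were fitted with limma 3.58.1 (lmFit, eBayes) under R 4.3.3 (10 residual degrees of freedom). Two-sided p-values in each comparison had Benjamini-Hochberg adjustment over 11692 probe sets. The SE pools the spread of all 15 arrays, so it does not follow the larger within-group SD of K14-PTHrP and K14WT skin. Array medians ran from 3.86 to 4.04, so no scaling was added, and the number of arrays limits the precision. The fit was tested on simulated data. Alternatives changed the filter, scaling, spread, samples in the fit and replicates. Python 3.11.15 served for tables and figures. Sequences come from RefSeq, GRCm38.p6. The lists' probe sets alone carry names here, and 20255 others were tested without one.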

Additional observations from a re-analysis of the deposited data

How the results depend on the processing

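No gene named for passing or for arrays without overlap changed direction under an alternative in that comparison. Smaller differences did in K14-PTHrP against K14WT skin. With centred arrays Orc4, at -0.05 as deposited, turned higher. The 3 genes of chromosome structure went from 0 higher and 3 lower to 2 and 1. The median over the 38 in WT skin against WT buds, -0.04, changed sign, to 0.0147 with the brightest probe set per gene, 0.0785 without WT bud replicate 3, and 0.0334 and 0.0066 without WT skin replicates 1 and 3. In K14-PTHrP against K14WT skin the 1 called probe set became 0 in a fit of the 2 groups alone, with no filter on low values and with the replicate number as a block, and 0 to 1 when single arrays were left out (0 without K14-PTHrP replicate 1 or 3 or K14WT replicate 2 or 3). In buds labelled PTHrP-/- 1 probe set, of Cdk4, was called when those 2 groups were fitted without the rest, where 97 were called in all against 4 otherwise. The median there was -0.45 with centred arrays and -0.27 after quantile normalization. In WT skin against WT buds the 1 called became 0 with centred arrays, without the displaced probe sets and among members not ending in x_at, and 0 to 1 without single arrays (0 without WT bud replicate 1 or 3 or WT skin replicate 1 or 3). Fitting those 2 groups without the rest, or with the block, also called 1, but these were Cdc42ep1 and Smc4 in place of Mcm3. Its median ran from -0.069 to 0.0785 without single arrays. In K14WT against WT skin the 10 called became 4 with no filter and 5 without the displaced probe sets, and 2 to 10 without single arrays. The median there was -0.15 after quantile normalization and from -0.34 to -0.18 without single arrays. Over all tested probe sets the calls in K14-PTHrP against K14WT skin were 83, but 7 in a fit of both groups without the rest, and 48 to 210 without single arrays. In the buds they were 4, with 2 under a stricter filter and 1 to 6 without single arrays, in WT skin against WT buds 208, with 86 under a stricter filter and 30 without the displaced probe sets, and in K14WT against WT skin 861, with 383 to 1278 without single arrays. Same-numbered arrays did not all deviate together. Between the K14 groups r was 0.31, 0.18 and -0.14 for replicates 1, 2 and 3, and from -0.34 to 0.26 for unlike numbers. Between the buds r ran from -0.05 to 0.26 for like numbers and from -0.21 to 0.27 for unlike ones. The main fit did not take the numbers as pairs, which these few values do not settle. With the block Ccnd3 in K14-PTHrP skin was at adjusted p = 0.0669, from 0.018 to 0.379 over its settings. In K14WT against WT skin 10 were called with it, among which Cdk1 and the other Ccnd2 probe set took the place of Rfc2 and Ccndbp1. The exclusion of displaced probe sets, of members ending in x_at and of matches by name only was added after the data were seen. Of the values for single genes under an alternative, 439 kept their side of the threshold, 76 no longer passed and 1 newly passed. The cause of these changes was not tested. With 3 arrays a group, the number of arrays limits what can be resolved.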
